A study of Mus musculus with 28 samples.

Results

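A set of 36 genes of skeletal muscle was followed through bulk RNA-sequencing of mouse tail tendon fascicles, in 28 libraries made from 1 mouse each. The genes were taken as a fixed list of sarcomere, calcium-handling and fibre-energy genes and matched by symbol, and each of the 36 was found once among the 25719 gene identifiers counted. Of these, 15 were counted as fast-fibre genes, 5 as slow-fibre genes and 16 as genes that both fibre kinds use. Early mice were 6 to 8 weeks old and all male, with 7 WT and 8 Fosl-2(Tg) animals. Established mice were older than 14 weeks, with 6 WT and 7 Fosl-2(Tg) animals, of which 11 were female and 2 male, with 1 male in each genotype. Stage and sex were thus nearly inseparable. All mice were on a C57BL/6 background. The Fosl-2(Tg) mice (Tg) carry a randomly inserted vector in which the promoter H2Kb of major histocompatibility complex class I, active in many cell types, drives the murine Fosl2 gene, an AP-1 transcription factor, together with eGFP. WT mice were non-transgenic animals of the same breeding. Whole fascicles, drawn out of the skinned tail, were homogenised, so each library holds the RNA of every cell left on them. P-values measure the spread between mice. The questions were how far these genes ranged over the libraries, how fast and slow genes compared, and whether Tg and WT differed at each stage.

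A muscle fibre contracts as myosin heads of the thick filament pull on actin of the thin filament. Calcium released from the sarcoplasmic reticulum binds troponin C and frees the actin sites, with tropomyosin and the troponins T and I as the switch. Fast and slow fibres build this machine from different paralogs, so that Myh1, Myh2 and Myh4 encode fast myosin heavy chains, and Myh7 the slow one. Tendon cells do not form sarcomeres. In the tail, muscle bellies lie next to the tendons that leave them, and the fibres end at myotendinous junctions.

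The promoters of 4 myosin heavy chain genes are shown because the mix of these chains varied widely between libraries, and those of Acta1 and Ckm because they stand for genes that both fibre kinds use. Acta1 encodes skeletal alpha-actin and Ckm the muscle creatine kinase. Each sequence runs 5′ to 3′ from 250 bases before to 50 bases after a RefSeq start on GRCm38.p6, whereas the counts were made on GRCm39. Myh1 was read from chr11:67199852-67200151 (plus strand), Myh2 from chr11:67170777-67171076 (plus strand), Myh4 from chr11:67237562-67237861 (plus strand), Myh7 from chr14:54994500-54994799 (minus strand), Acta1 from chr8:123894726-123895025 (minus strand) and Ckm from chr7:19410844-19411143 (plus strand). For Myh7, the more downstream of 2 listed starts was taken. Capitals mark matches to the MEF2 motif or the CArG box on either strand and to TATAAA on the strand shown.
Myh1: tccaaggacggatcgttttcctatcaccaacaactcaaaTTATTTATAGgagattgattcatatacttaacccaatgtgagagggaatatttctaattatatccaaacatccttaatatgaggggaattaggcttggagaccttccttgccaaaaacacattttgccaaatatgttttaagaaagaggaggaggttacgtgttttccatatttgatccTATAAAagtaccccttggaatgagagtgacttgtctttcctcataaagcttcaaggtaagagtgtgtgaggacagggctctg
Myh2: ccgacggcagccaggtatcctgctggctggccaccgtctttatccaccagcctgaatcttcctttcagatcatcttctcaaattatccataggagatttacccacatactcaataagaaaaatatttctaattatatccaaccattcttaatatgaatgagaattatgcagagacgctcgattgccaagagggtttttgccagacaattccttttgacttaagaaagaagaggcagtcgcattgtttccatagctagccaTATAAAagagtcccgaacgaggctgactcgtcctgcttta
Myh4: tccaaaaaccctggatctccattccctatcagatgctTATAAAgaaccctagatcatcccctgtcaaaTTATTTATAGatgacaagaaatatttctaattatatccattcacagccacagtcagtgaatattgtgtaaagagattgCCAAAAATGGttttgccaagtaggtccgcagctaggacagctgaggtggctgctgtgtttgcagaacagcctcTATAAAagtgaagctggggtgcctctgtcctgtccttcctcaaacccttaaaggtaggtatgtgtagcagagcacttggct
Myh7: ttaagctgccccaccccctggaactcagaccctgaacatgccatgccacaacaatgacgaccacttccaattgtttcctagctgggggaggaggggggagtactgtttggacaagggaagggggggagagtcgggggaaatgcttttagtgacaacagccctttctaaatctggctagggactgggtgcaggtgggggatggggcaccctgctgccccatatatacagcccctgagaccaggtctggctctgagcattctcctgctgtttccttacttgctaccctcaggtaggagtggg
Acta1: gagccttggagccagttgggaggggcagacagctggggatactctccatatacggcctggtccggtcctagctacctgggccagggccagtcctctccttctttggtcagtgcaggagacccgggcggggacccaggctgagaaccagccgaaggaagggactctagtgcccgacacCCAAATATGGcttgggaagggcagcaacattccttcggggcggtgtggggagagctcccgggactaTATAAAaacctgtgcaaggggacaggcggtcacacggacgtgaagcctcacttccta
Ckm: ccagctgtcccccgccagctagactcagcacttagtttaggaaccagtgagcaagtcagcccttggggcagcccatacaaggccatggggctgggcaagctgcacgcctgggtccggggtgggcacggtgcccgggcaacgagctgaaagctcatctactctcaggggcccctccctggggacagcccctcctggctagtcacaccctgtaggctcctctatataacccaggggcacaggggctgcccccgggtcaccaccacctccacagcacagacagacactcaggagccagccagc
The promoters of Myh1, Myh2 and Myh4 shared a run of 20 bases, which no other gene of the table held in its window:
shared run: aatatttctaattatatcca
Of the 36 genes, 27 had a promoter in the table. The MEF2 motif, bound by a family of muscle transcription factors, was found in 4 of the 27 (14.8%; Myh1, Myh4, Pvalb and Ttn) and in 2.16% of all 27025 genes with a promoter. The CArG box, the site of serum response factor, was found in 2 (7.41%; Myh4 and Acta1, background 1.81%), and TATAAA in 5 (18.5%, background 9.77%). The E-box CANNTG, read by MyoD and its relatives, was in 24 (88.9%) but also in 75.0% of all genes. None of the 5 slow genes held a MEF2 motif or a CArG box in this window. TATAAA was present in 1 of them, Tnnt1. In Myh2 it lay after the listed start. These matches describe letters and not bound sites. On GRCm39 the fast myosin genes lie side by side on the plus strand of chromosome 11, with Myh2 at chr11:67061838-67088989, Myh1 at chr11:67089132-67116631 and Myh4 at chr11:67128336-67151274, and Myh7 lies at chr14:55208141-55232084 on the minus strand. The coding sequences of Myh1 and Myh2 were 91.0% identical, and 2.15% of the 150-base windows of Myh1 occurred unchanged in Myh2 (Myh1 and Myh4, 0.264%; Myh2 and Myh4, 0%). How reads of such windows were counted is not given in the sources used here, so the split between Myh1 and Myh2 is slightly uncertain.

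The files hold raw counts per gene, with totals from 9645598 to 66894396 per library. Values are given as CPM after TMM scaling across the 28 libraries, with scaling factors from 0.694 to 1.449. The tendon markers Scx, Tnmd, Mkx, Fmod, Thbs4, Col1a1 and Col1a2 were counted in every library, and their CPM together ran from 3302 to 609322. Fosl2 had median levels of 75.8 CPM in early WT and 87.1 in early Tg mice, and of 105 and 145 CPM in established WT and Tg mice. Its log2 fold change was 0.20 ± 0.24 (SE) early and 0.38 ± 0.15 established (edgeR's quasi-likelihood test with Benjamini-Hochberg adjustment, FDR 0.918 and 0.141), and reads of the transgene and the native gene cannot be told apart in these counts. In this bulk RNA, fewer muscle fibres and less RNA per fibre cannot be told apart either.

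Muscle transcripts were found in every library, in amounts that spanned more than 2 orders of magnitude. The 36 genes took 0.0268% of the counts in the poorest library, Tg established replicate 4 (95% exact Clopper-Pearson interval 0.0260 to 0.0276%), and 7.24% in the richest, WT established replicate 5 (7.23 to 7.25%), a 271-fold range. These intervals cover counting error only. In early WT mice the share was lowest at 0.0531%, had a median of 0.523% and was highest at 2.74%. In early Tg mice these values were 0.224%, 1.45% and 3.14%. In established WT mice they were 0.0351%, 0.954% and 7.24%, and in established Tg mice 0.0268%, 0.209% and 2.84%. The genotypes overlapped widely at each stage, and the spread within each group was larger than the distance between medians. Between stages, the established Tg median of 0.209% lay below the lowest early Tg library (0.224%). The richest library of each established genotype came from its only male.

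**Figure D1:**
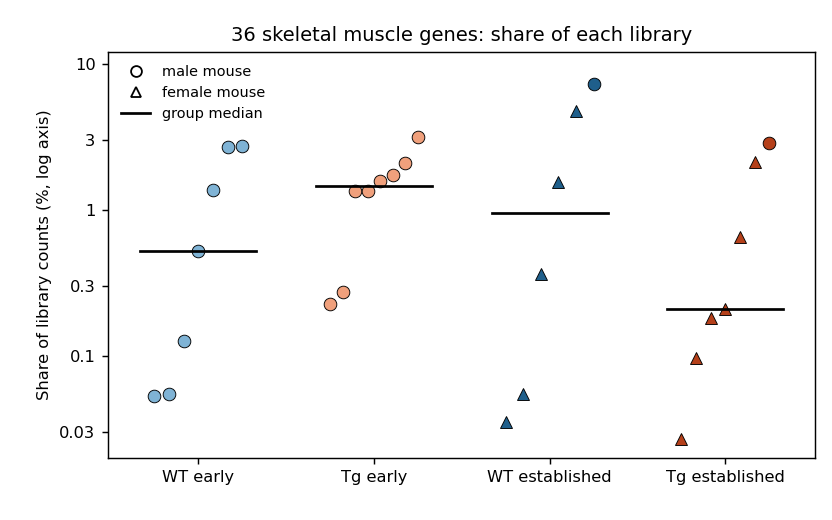
Share of all counts taken by the 36 muscle genes in each library, in percent on a log axis, by group (7 WT early, 8 Tg early, 6 WT established and 7 Tg established mice). Points are libraries, circles males and triangles females, and bars are group medians (0.523, 1.45, 0.954 and 0.209%). The Tg established median lies below the lowest Tg early library (0.224%), and the other medians lie inside the spread of every group.

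Most of the genes followed this total together. A principal component analysis of log2 CPM over the 36 genes and 28 libraries placed 91.0% of the variance on the first component, which describes these libraries and is no test. The largest part of the muscle counts belonged to the giant elastic protein titin. Ttn took between 43.1 and 60.8% of them, with a median of 49.1%. Ttn ranged from 96.7 CPM in Tg established replicate 4 to 33624 CPM in WT established replicate 5, with a median of 5429 CPM. Its transcript is also by far the longest of the set. Per kilobase of its canonical transcript, Acta1 was the most abundant, with a median of 209 CPM per kb, before Atp2a1 (103 CPM per kb), which encodes the fast calcium pump SERCA1, and Mylpf (97.6 CPM per kb), the fast regulatory light chain. Myh1 followed at 89.2, the alkali light chain Myl1 at 72.8 and fast troponin T, Tnnt3, at 69.2 CPM per kb. The 5 slow genes filled the last 5 of the 36 ranks, from 2.61 CPM per kb for Tnnc1 down to 0.351 for Myh7.

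Within the thin filament, Acta1 had a lowest level of 8.11, a median of 345 and a highest of 3199 CPM over the 28 libraries. The fast troponins behaved alike, with Tnnt3 between 6.90 and 1259 CPM (median 121), Tnni2 between 0.837 and 511 CPM (median 45.0) and Tnnc2 between 0.705 and 365 CPM (median 29.1). Tnnc2 shares 616 exon bases with Ube2c on the opposite strand, Atp2a1 1188 with Rabep2 and Actn3 1355 with Ctsf. Since the strand setting of the counting is not given in the sources used here, reads of such partners cannot be told apart there. Among calcium-handling genes, Atp2a1 ran from 10.9 to 4151 CPM (median 429) and Pvalb, the calcium buffer of fast fibres, from 1.16 to 587 CPM (median 55.0). In the Z disc and elastic group, Des, the intermediate filament that ties Z discs together, ran from 1.56 to 639 CPM (median 82.6). Among energy genes, Ckm ran from 3.78 to 1457 CPM (median 117). The oxygen store myoglobin, Mb, ran from 0.733 to 828 CPM (median 83.5). For the fast genes other than Mybpc2 and Myoz1 and the shared genes other than Tcap, whose lowest libraries held 3 counts or fewer, the highest level was between 44.3 times (Eno3) and 1721 times (Myh1) the lowest.

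**Figure D2:**
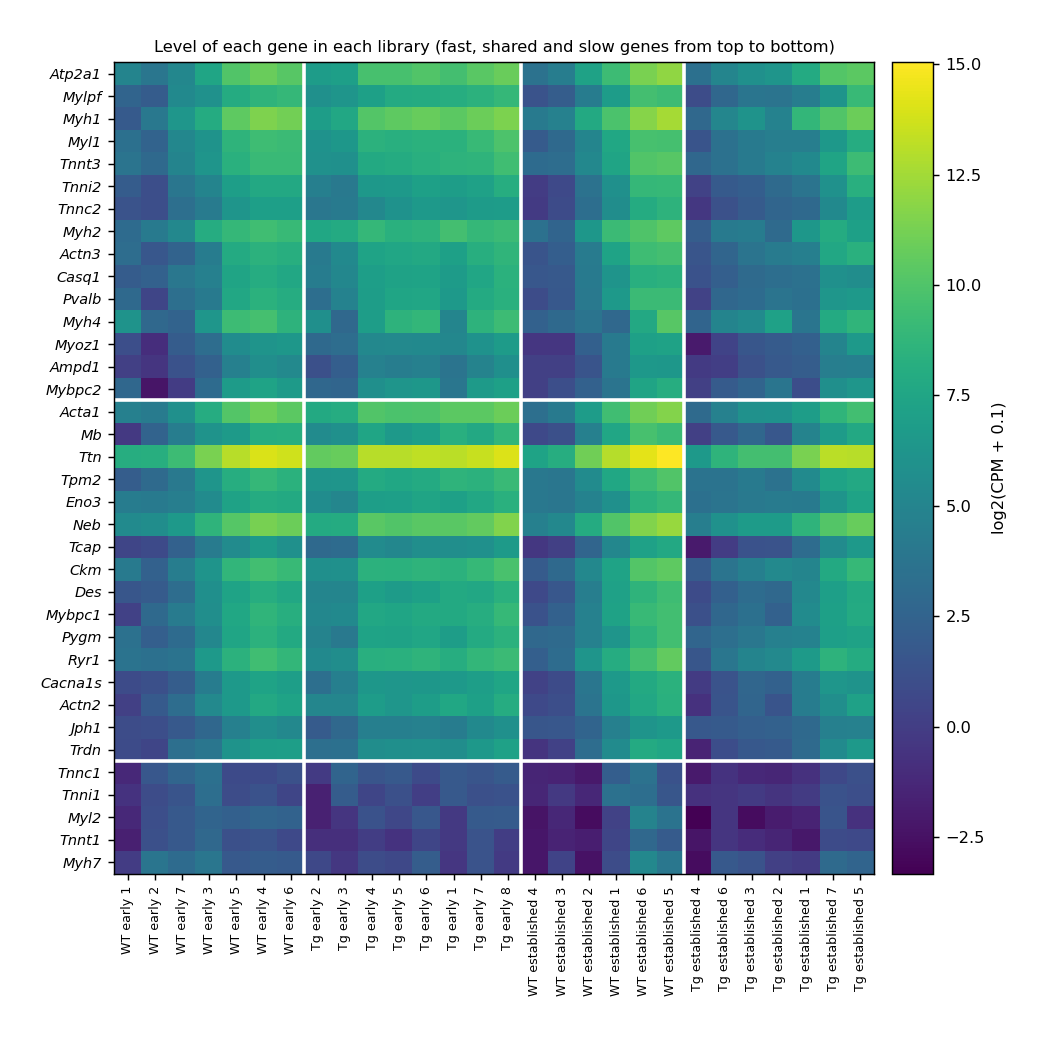
Level of each of the 36 genes (rows) in each of the 28 libraries (columns) as log2(CPM + 0.1), with fast, shared and slow genes from top to bottom, ordered by median CPM per kb, and libraries ordered within each group by their muscle share. Fast and shared genes brighten together from left to right in every group, whereas the 5 slow genes at the bottom stay dim and do not keep this order.

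Slow-fibre genes were scarce. Myh7 had a lowest level of 0.0504, a median of 2.15 and a highest of 37.5 CPM. Myl2, the slow regulatory light chain, ran from 0 counts in Tg established replicate 4, which allows up to 3 counts, to 30.0 CPM (median 1.28). The slow troponins had medians of 0.916 CPM for Tnnt1, 1.83 for Tnni1 and 1.88 for Tnnc1, with highest levels of 7.42, 11.6 and 12.1 CPM. The highest values of Myh7, Myl2, Tnnt1 and Tnnc1 all came from WT established replicate 6. Once the mean of the 36 genes in each library was taken out, the SD of log2 CPM was 1.49 to 2.15 for the slow genes, against 0.348 to 1.63 for the fast and 0.326 to 0.956 for the shared ones. The slow genes and Myh4 (1.63) thus followed the muscle total least. Their counts were small, with 13 of 28 libraries under 10 for Myl2 and 11 for Tnnt1, so counting error is a large part of single values.

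As a share of fast and slow counts together, the slow genes made up between 0.118% (WT established replicate 2, interval 0.0783 to 0.170%) and 20.7% (WT early replicate 2, 18.3 to 23.3%), with a median of 0.427%. Only 2 further libraries lay above 4%, namely WT early replicates 7 (6.74%) and 3 (4.17%). All 8 early Tg libraries lay between 0.121 and 1.17%. WT early replicates 2 and 7 were also among the poorest in muscle transcripts, with 0.0548% and 0.126% of their counts.

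The mix of myosin heavy chains differed from mouse to mouse. Of the counts of Myh1, Myh2, Myh4 and Myh7, Myh1 held a median of 63.7%, with a range from 4.44 to 82.3%. Myh2 held a median of 18.4% (4.45 to 52.6%), Myh4 15.1% (0.490 to 83.9%) and Myh7 0.206% (0.0191 to 24.9%). Myh1 was the leading chain in most libraries. Myh4 led in WT early replicate 1, where it held 83.9% of 1217 counts (81.7 to 85.9%), and in Tg established replicate 2, where it held 79.6% of 8713 counts. At the other end, WT established replicate 1 held 0.490% Myh4 in 27727 counts and Tg early replicate 1 held 1.51% in 23312 counts. Myh2 led in WT early replicates 2 and 3 (33.0 and 43.0%) and in Tg early replicates 2 and 3 (52.6 and 52.4%). The differences in Myh4 share far exceed the counting error, and they arose within groups as much as between them. For the lead of Myh2 in WT early replicate 2, the intervals of Myh2 (29.0 to 37.1%) and Myh1 (25.3 to 33.1%) overlapped. In WT early replicate 3, Myh1 came close at 41.1%. Medians of the Myh4 share were 13.5% in early WT, 14.2% in early Tg, 9.24% in established WT and 32.4% in established Tg mice, with ranges of 4.24 to 83.9%, 1.51 to 17.7%, 0.490 to 18.5% and 2.51 to 79.6%.

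**Figure D3:**
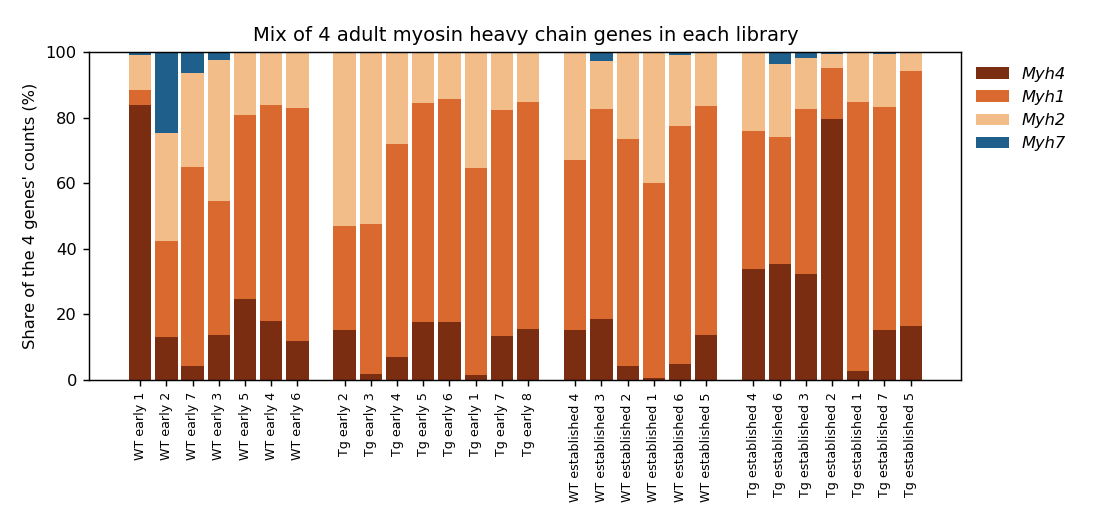
Share of Myh4, Myh1, Myh2 and Myh7 in the sum of their counts, in percent, for each library (bars), grouped by genotype and stage and ordered within each group by muscle share. Myh1 holds most of the bar in most libraries, Myh4 fills 83.9% of WT early replicate 1 and 79.6% of Tg established replicate 2, and Myh7 is broad only in WT early replicate 2 (24.9%).

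In the early cohort, no muscle gene passed the test between genotypes. Of 15138 genes tested, 4 (0.0264%) were called, all lower in Tg mice. A gene was called when its FDR was no higher than 0.05 and its log2 fold change was 1 or more in either direction. All 36 muscle genes were tested, and 0 were called by edgeR's quasi-likelihood test or by DESeq2. The median log2 fold change of the 36 was 0.45, against -0.01 over all genes tested, with 30 values above 0 and 6 below. The values above 0 were those of 14 fast and 16 shared genes, and those below 0 were Myh4 and the 5 slow genes. At an unadjusted p under 0.05, there were 2 of the 36 by either tool and 6.06% of all genes by edgeR. For none of the 36 were the genotypes free of overlap, as they were for 0.0528% of all genes. Early mice with the same replicate number deviated together in 7 of 7 pairs, although only 1 of 14 mice correlated best with its own partner. With the number as a block the median was 1.04 and 0 were called. With limma voom sample weights the median was 1.94, again with 0 called.

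Among the early thin-filament genes, Acta1 had a lowest, median and highest level of 19.8, 269 and 2035 CPM in WT and of 224, 1016 and 1970 CPM in Tg mice. The WT mice reached both lower and slightly higher than the Tg mice, and the log2 fold change of 0.53 ± 0.82 (SE) was smaller than its error. Mb had the highest fold change of the 36, with levels of 0.733, 67.5 and 295 CPM in WT and 46.3, 155 and 431 CPM in Tg mice (0.75 ± 0.81, FDR 0.917 by edgeR). The difference was again within the spread. The fast myosins Myh1, Myh2 and Myh4 had log2 fold changes of 0.45 ± 0.98, 0.58 ± 0.70 and -0.12 ± 0.95. Of the remaining fast and shared genes, values lay between 0.14 (Mybpc2) and 0.71 (Actn2).

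All 5 slow genes of the list had values below 0 in the early cohort. Slow-muscle genes outside the list did not share this sign. Myoz2 (0.70 ± 0.59), Ankrd2 (0.45 ± 0.76), Csrp3 (0.24 ± 0.75) and Casq2 (0.18 ± 0.47) were above 0. Only Myl3 (-0.31 ± 0.21) and Myh7b (-0.05 ± 0.15) were below. Myh7, which had the lowest fold change and the smallest p, had levels of 0.866, 3.94 and 14.6 CPM in WT and 0.648, 1.46 and 4.22 CPM in Tg mice. All 8 Tg mice lay below the WT mean, but the groups overlapped, and the log2 fold change of -1.98 ± 0.52 did not pass (edgeR FDR 0.442). Tnnt1 stood at 0.20, 2.18 and 7.09 CPM in WT and at 0.445, 0.827 and 2.46 CPM in Tg mice (-1.43 ± 0.49, edgeR FDR 0.657). Myl2 stood at 0.333, 4.91 and 6.14 CPM in WT and at 0.223, 1.87 and 3.84 CPM in Tg mice (-1.01 ± 0.51, edgeR FDR 0.834). For both, the 8 Tg mice lay below the WT mean. Tnni1 (-0.48 ± 0.52) and Tnnc1 (-0.30 ± 0.51) had fold changes within their errors. Their Tg medians of 2.14 and 3.09 CPM were above the WT medians of 1.87 and 2.20 CPM. Without WT early replicate 3, both fold changes were above 0 (0.24 and 0.26).

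In the established cohort, every muscle gene had a fitted level below that of WT mice in Tg mice, a sign that for Myh4 rested on 1 library, and none passed the test. Of 15862 genes tested, 311 (1.96%) were called, and 0 of the 36 muscle genes were among them by edgeR or by DESeq2. Their log2 fold changes were all below 0, with a median of -1.83 against 0.01 over all genes tested, and standard errors from 0.83 to 1.45. Since most of these genes followed the muscle total of each library, their common sign is not 36 separate observations. By role, medians were -1.77 for thick-filament, -1.91 for thin-filament, -1.65 for Z-disc and elastic, -1.96 for calcium-handling and -1.95 for energy genes. The fast, slow and shared genes had medians of -1.72, -1.91 and -1.86. With limma voom sample weights, the median of the 36 was -0.29. At an unadjusted p under 0.05 edgeR placed 6 of the 36, namely Myl2, Casq1, Myh2, Tnni1, Pvalb and Tnnc1, and DESeq2 10, where 26.6% of all genes met this level by edgeR. Genotypes were free of overlap for 3.81% of all genes and for 0 of the 36.

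Acta1 stood at 10.4, 402 and 3199 CPM (lowest, median and highest) in established WT and at 8.11, 65.2 and 706 CPM in established Tg mice. All 7 Tg mice lay below the WT mean, yet the WT mice themselves ran from near the lowest Tg value to the highest value of all, and the log2 fold change was -2.35 ± 1.23 (edgeR FDR 0.238). Ttn stood at 158, 5174 and 33624 CPM in WT and at 96.7, 759 and 9181 CPM in Tg mice (-1.73 ± 1.19, edgeR FDR 0.365). Ckm stood at 3.84, 98.9 and 1457 CPM in WT and at 3.78, 33.0 and 492 CPM in Tg mice (-1.95 ± 1.31, edgeR FDR 0.353). In each case the poorest WT mouse lay below the Tg median.

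Of the established fast genes, Myh2 was the lowest at -2.78 ± 1.2 (edgeR FDR 0.159), with 6.07, 341 and 1449 CPM in WT and 4.23, 21.1 and 254 CPM in Tg mice. Pvalb had -2.76 ± 1.27 and Casq1, the calcium store protein of fast fibres, -2.58 ± 1.08 (edgeR FDR 0.182 and 0.152). Myh4 was the closest to 0 of all 36 at -0.92 ± 1.29, and its Tg median of 44.2 CPM was above the WT median of 10.6 CPM. The sign of the Myh4 difference thus depended on WT established replicate 5, which held 1209 CPM, and without which the fold change was 1.36. It was also above 0 in females only (0.69) and with sex as a covariate (0.37). Myh1 had -1.77 ± 1.37, Mylpf -1.39 ± 1.38, Tnnt3 -1.71 ± 1.27, Tnni2 -1.62 ± 1.45, Tnnc2 -2.17 ± 1.33, Atp2a1 -1.57 ± 1.30 and Des -1.73 ± 1.30. None of these differences passed, with FDR values from 0.308 to 0.535 by edgeR.

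Of the established slow genes, Myl2 had both the lowest fold change and the smallest p of the 36. It stood at 0.0554, 0.721 and 30.0 CPM in WT and at 0, 0.257 and 2.59 CPM in Tg mice (-3.56 ± 1.34, edgeR FDR 0.113). WT established replicates 5 and 6, with 12.5 and 30.0 CPM, set the WT mean, while the other 4 WT mice lay at 1.14 CPM or lower, within the range of the Tg mice. Tnni1 (-1.91 ± 0.83), Tnnc1 (-2.07 ± 0.95), Tnnt1 (-1.61 ± 0.94) and Myh7 (-1.57 ± 1.15) had FDR values from 0.161 to 0.398 by edgeR. For Myh7 the Tg median of 2.47 CPM was above the WT median of 1.53 CPM.

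**Figure D4:**
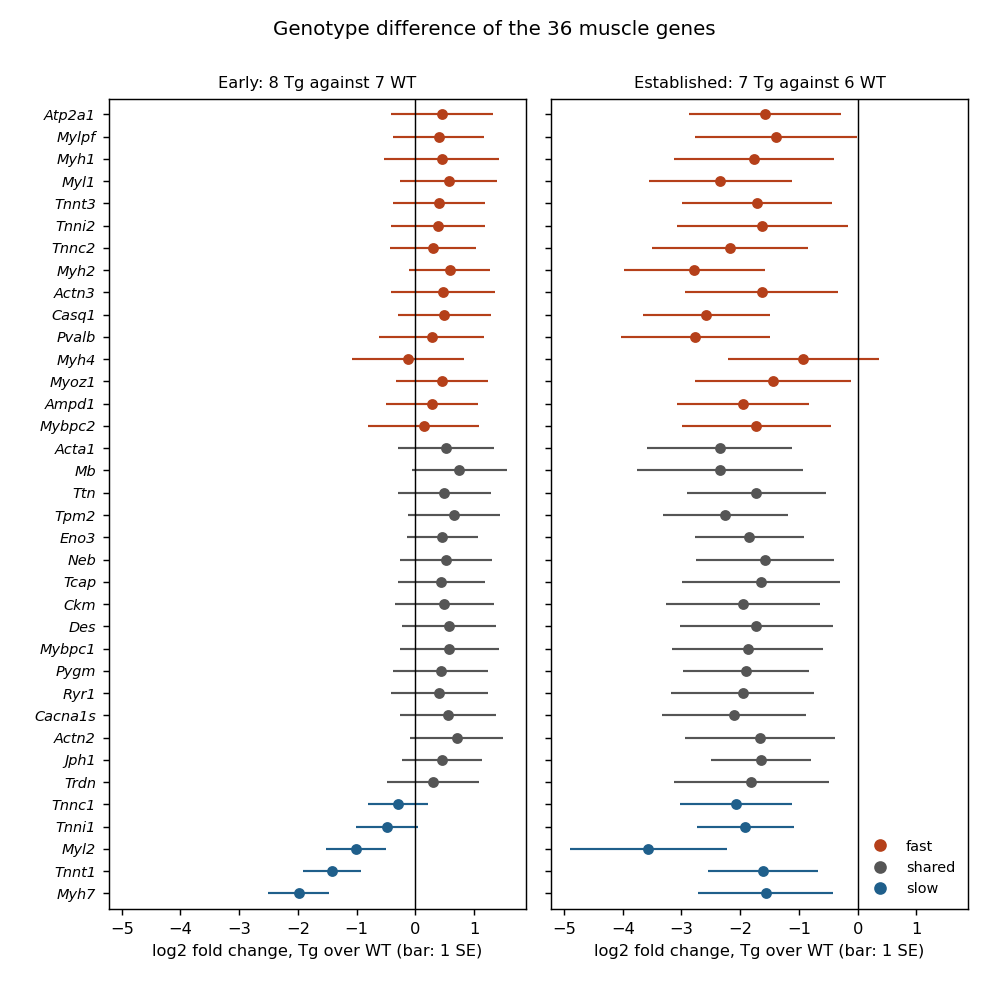
Log2 fold change of Tg over WT mice (points) with 1 standard error (bars) for each of the 36 genes, in the early (left) and established cohort (right), by edgeR with fast, shared and slow genes in colour. Early values of fast and shared genes lie between -0.12 and 0.75 and those of slow genes between -1.98 and -0.30, whereas all established values lie below 0 with standard errors from 0.83 to 1.45.

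Whether the genotype difference changed between stages was tested by an interaction in 1 fit of the 4 groups. Of 16082 genes tested, 1195 (7.43%; 3.43% above and 4.0% below 0) had an FDR no higher than 0.05, and 0 of the 36 by edgeR or by DESeq2. The median interaction of the 36 was -2.24, with the lowest value for Myh2 (-3.37 ± 1.40, edgeR FDR 0.13) and the only value above 0 for Myh7 (0.41 ± 1.27). At an unadjusted p under 0.05, edgeR placed 3 of the 36 and 25.3% of all genes, and DESeq2 placed 8 of the 36. In WT mice, established against early, 0 of the 36 were called, where 1.53% of all genes were (0.665% higher and 0.864% lower), and the median log2 fold change was 0.81. No member had an unadjusted p under 0.05 there by edgeR, against 22.4% of all genes.

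In Tg mice, established against early, 3 of the 36 muscle genes were called lower, where 5.27% of all genes were called lower and 5.17% higher. The 3 are close in number to what the share of all genes would give. At an unadjusted p under 0.05, edgeR placed 7 of the 36, all lower, a smaller share than the 54.7% of all genes. The 3 called genes were Casq1 (-2.73 ± 1.00, FDR 0.0264), Myh2 (-2.51 ± 1.00, FDR 0.0394) and the slow troponin C, Tnnc1 (-2.05 ± 0.79, FDR 0.0343, all by edgeR). Casq1 stood at 20.5, 137 and 331 CPM in early and at 2.42, 9.84 and 58.5 CPM in established Tg mice, and Myh2 at 193, 424 and 760 CPM in early and 4.23, 21.1 and 254 CPM in established ones. The 36 had a median of -1.41 here. This contrast changes sex together with stage, and it rested on single libraries: 11 genes were called without Tg established replicate 5, the only male of its group, 12 without both established males, 1 without Tg early replicate 8 or Tg established replicate 3, 4 or 6, and 0 without Tg established replicate 1 or 2. Library totals in place of TMM scaling, which moved the median of all genes by 0.73, left 0 called. Shares of all genes called in these refits are not given here, so such counts have no background beside them. Other markers moved in the same contrast by edgeR. Of 7 tendon markers, 5 were called lower (median log2 fold change -1.84), and of 5 erythroid markers 4 were called higher (median 3.61). Of the 2 developmental myosins 1 was called lower, and of 37 further muscle genes 2. The part of these markers in the muscle values was not tested.

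The scaling of libraries cancels in the ratio of a fast to a slow paralog within each library, computed here as log2 of counts per kilobase for 5 protein pairs after adding 0.5 to each count. These pairs and this test were added once values of these genes were known. The ratio of fast to slow myosin heavy chain (Myh1, Myh2 and Myh4 summed, over Myh7) ran from 1.42 in WT early replicate 2 to 12.1 in Tg early replicate 8, with a median of 8.70. Mylpf to Myl2 ran from 1.06 to 10.04 (median 6.31). Fast genes exceeded their slow partners in every library for 4 of the pairs, and Tnnc2 to Tnnc1 was below 0 only in WT early replicate 2 (-0.63).

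In the early cohort, the mean fast-to-slow ratio of the regulatory light chains lay above that of WT in Tg mice, a difference that passed its test only when mice were not paired by replicate number. Mylpf to Myl2 had a lowest, median and highest log2 ratio of 1.06, 4.15 and 6.58 in WT and of 5.99, 7.02 and 8.57 in Tg mice. The ranges overlapped slightly. The Tg mean was 2.73 higher, all 8 Tg mice lay above the WT mean, and the difference passed the exact two-sided permutation test after Benjamini-Hochberg adjustment over the 10 tests (p = 0.00155, adjusted p = 0.0155). It did not pass when mice with the same replicate number were taken as pairs. The mean difference was then 2.75, and the Tg mouse was higher in 5 of 7 pairs. An exact sign-flip permutation test gave p = 0.0625 (adjusted p = 0.208), where 7 pairs can give 0.0156 at the lowest. A single ratio at that lowest p would not pass after adjustment over the 10 tests, so the adjusted value cannot decide. For the heavy chains the difference was 3.40 (exact permutation p = 0.0186, adjusted p = 0.0694), with 1.42, 6.49 and 9.87 in WT and 7.76, 9.76 and 12.1 in Tg mice. For troponin T it was 2.63 (exact permutation p = 0.0208, adjusted p = 0.0694). These 2 pairs missed the threshold after adjustment, although all 8 Tg mice lay above the WT mean in both. Troponin I (1.79) and troponin C (1.22) had adjusted p values of 0.378 and 0.572 by the same exact permutation test.

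The low ratios belonged to certain WT mice. WT early replicates 1, 2, 3 and 7 had Mylpf-to-Myl2 ratios of 4.15, 1.06, 3.46 and 3.72, and muscle shares of 0.0531, 0.0548, 0.523 and 0.126%. WT early replicates 4, 5 and 6, with shares of 2.67, 1.36 and 2.74%, had ratios of 6.08, 5.80 and 6.58. The 2 poorest Tg early libraries, replicates 2 and 3 with 0.224 and 0.273%, had ratios of 7.83 and 7.01, on 2 and 8 counts of Myl2. The part of the muscle amount in this difference was not tested. In the established cohort, Mylpf to Myl2 had ratios of 3.77, 5.23 and 8.35 in WT and of 3.52, 6.32 and 10.04 in Tg mice, a difference of 0.80. None of the 5 established differences, from -1.04 for the heavy chains to 0.80, passed (exact permutation, adjusted p from 0.594 to 0.864). Whether the early and established differences themselves differ was not tested.

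**Figure D5:**
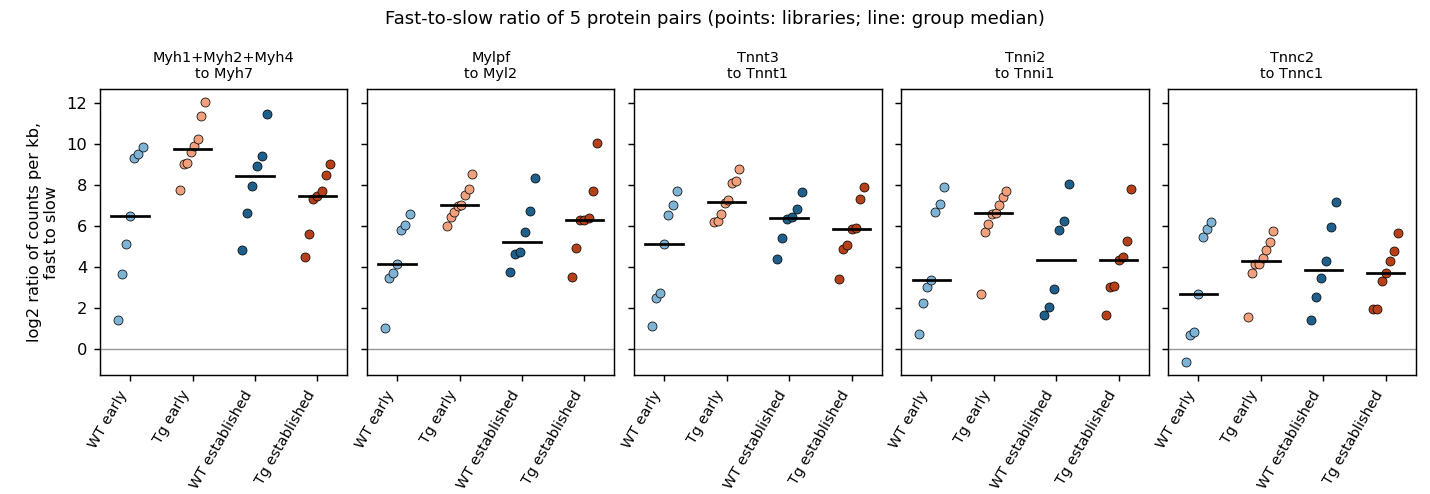
Log2 ratio of counts per kilobase of fast to slow paralogs in each library (points), for 5 protein pairs by group, with group medians as bars. In the first 3 panels the early WT libraries reach far below the early Tg libraries (Mylpf to Myl2, 1.06 to 6.58 against 5.99 to 8.57), while the established groups overlap throughout.

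Most genes of muscle outside the list had differences of the same sign as the 36. Of 37 further muscle genes, 0 were called in either cohort by edgeR, with median log2 fold changes of 0.41 early and -1.41 established. In the early cohort their lowest value was that of Myl3, a slow alkali light chain (-0.31 ± 0.21), and their highest that of Myoz2, a slow Z-disc protein (0.70 ± 0.59). In the established cohort they ran from -2.91 ± 1.00 for Sypl2, a triad protein (edgeR FDR 0.0896), to 1.14 ± 1.46 for Ankrd2, a stretch-responsive protein of slow muscle. The summed CPM of the 37 ran from 146 to 7389. With their mean log2 CPM as a covariate, the median fold change of the 36 was 0.08 early and 0.00 established. Since that mean is itself a measure of muscle content, medians near 0 follow largely from the fit. Why the muscle content differed was not tested.

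Markers of other tissues were measured beside them. The skin keratins of basal and upper epidermis Krt5, Krt14 and Krt1 were nearly absent, with at most 1, 4 and 1 counts in any library. Krt10 was counted in every library at 1.63 to 3.67 CPM and made up most of the summed skin markers of 1.68 to 3.81 CPM. The atrial and ventricular heart genes were low too, with Myh6 at 9 counts or fewer, and the 4 cardiac markers together at 0.751 to 3.90 CPM. The developmental myosins Myh3 and Myh8 were low, with summed levels of 0.101 to 18.7 CPM, and 0 of 2 were called in either cohort. Of 5 satellite-cell and myogenic factors, 2 early and 1 established had enough counts to be tested, and 0 were called. Of the 2 atrophy ligases, Trim63 and Fbxo32, 0 were called, with established log2 fold changes of 0.40 ± 1.28 and 0.44 ± 0.46.

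Some markers were called between genotypes in the established cohort, where 1.16% of all genes were called lower and 0.801% higher. Of 7 tendon markers, 4 fell in Tg mice by edgeR, namely Col1a1 (-2.50, FDR 0.0356), Col1a2 (-2.23, FDR 0.0367), Tnmd (-2.03, FDR 0.0386) and Scx (-1.27, FDR 0.0444), and the summed tendon markers ran from 90613 to 183829 CPM in WT and from 3302 to 73044 CPM in Tg mice. Of 6 genes of the neuromuscular junction and of the response to nerve loss, 4 were tested and 1 was called, Gadd45a (1.28, edgeR FDR 0.0267). Runx1 passed the FDR below the fold threshold (0.47, edgeR FDR 0.0414). Both are also used by many cells without sarcomeres. Of 5 smooth muscle genes, with a list median of -0.00065, Smtn fell (log2 fold change -1.004, edgeR FDR 0.0303), and Acta2 passed the FDR below the fold threshold (-0.72, edgeR FDR 0.0444). Erythroid and adipocyte markers had 0 calls between genotypes in either cohort, with summed levels of 7.79 to 126 CPM and 0.0867 to 3.47 CPM. All 4 erythroid markers tested in the established cohort had values above 0 (median 2.38), and the 3 tested in the early cohort had values below 0 (median -0.99). In the interaction, 4 of 5 erythroid markers were called above 0 (median 4.95) and 4 of 7 tendon markers below 0 (median -1.41), by edgeR. The part of tendon or blood RNA in the muscle values was not tested.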

How the data were processed

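RNA of tail tendon fascicles was sequenced from 1 library per mouse after rRNA depletion (paired reads of 150 bases). The authors aligned reads with STAR to GRCm39 and deposited raw counts per gene from featureCounts with GENCODE release 26. The strand setting is not given in the sources used here. Identifiers were named with GENCODE release 39, which matched 25505 of 25719. Genes were filtered with filterByExpr by genotype (minimum count 10, minimum total 15), scaled by TMM and tested with edgeR 4.0.16 (quasi-likelihood, Benjamini-Hochberg adjustment over all genes tested), for each cohort alone and, for stages and the interaction, in 1 fit of the 28 libraries. Log2 levels used a prior count of 2, and levels per kb the canonical transcript. Library totals were 9645598 to 66894396, and shares carry exact 95% intervals of counting error. No pair of libraries agreed within sampling noise (lowest chi-square per degree of freedom 7.024 over 85 pairs). Paralog ratios were compared by exact two-sided permutation over 6435 early and 1716 established groupings, and in pairs by exact sign flips. Promoters came from RefSeq (GRCm38.p6), and motifs were searched on both strands except TATAAA.

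The 36 genes, the other lists and the genes named were chosen with earlier results of these data known. The genes named were the myosins, troponins, light chains and other fixed members, and in each comparison the member with the lowest and the highest fold change and the smallest p, and likewise the extremes of the other muscle genes; further genes were named after their values were seen. Replicate numbers come from the labels. Early mice with the same number deviated together in 7 of 7 pairs (correlations 0.129 to 0.363), although 1 of 14 correlated best with its own partner. In the established cohort correlations ran from -0.223 to 0.688, and 5 of 12 mice correlated best with their own partner. Fits with the number as a block were run in both cohorts. Alternatives were DESeq2 1.42.0, RLE size factors, library totals, TMM without muscle genes, other filters, limma 3.58.1 voom with sample weights, 1 fit of all groups, covariates for sex and muscle content, females only, the data without the 2 established males and each library left out. The scripts were tested on simulated data.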

Additional observations from a re-analysis of the deposited data

Results flagged for a closer look

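Of 88 tests of single libraries against their group, 3 set a library apart by Dixon's criterion. Chance meets it in about 1 of 20 groups, so 3 is no more than chance would give. The log2 CPM of Myl2 in WT early replicate 1 was -1.25, below the 6 other early WT mice, on 5 counts. The log2 of the summed CPM of the 5 slow genes, Myl2 among them, was 1.18 in the same library. This library was also the poorest of its group in muscle transcripts (0.0531% of its counts). The same sum was 1.64 in Tg early replicate 2, the poorest early Tg library (0.224%). Fast genes were not set apart in these libraries.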

How the results depend on the processing

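Of the 36 genes, 0 were called between genotypes in the early cohort under every alternative run. In the established cohort 1 gene, Myl2, was called with the replicate block (-3.54, edgeR FDR 0.0471), and 1, again Myl2, with all 28 libraries in 1 fit. Established mice with the same number had correlations of -0.223 to 0.688, and 5 of 12 correlated best with their own partner. The block gave an established median of -1.46. It also ended the early call of Mylpf to Myl2 (2.75, exact sign-flip permutation p = 0.0625), and changed no other call after adjustment. For a single ratio, that paired test could not pass after adjustment even at its lowest p. In WT mice across stages, voom called 3 (Myh7, Myl2 and Tnnt1, all lower). In Tg mice across stages, DESeq2 called 5, library totals 0, voom 28 and the data without the 2 established males 12, against 3. Leaving out 1 library gave 0 to 11 there and 0 in the other comparisons. It moved the median fold change of the 36 from 0.18 to 0.97 early and from -2.68 to -1.12 established. Shares of all genes called under these alternatives are not given here, so the counts of called genes have no background beside them.

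Directions turned for some single genes, none of them called, and the cause was not tested. Early, muscle content as a covariate gave Tnni2 -0.033 and Pvalb -0.056, and voom gave Myh4 0.88 and Tnnc1 0.16. Established Myh4 was 0.46 with the block, 0.69 in females only, 1.85 with muscle content, 0.37 with sex and 1.88 with voom. With muscle content, established Ckm was 0.38, Myh7 0.68, Tnnt3 0.0087, Tnni2 0.42, Mylpf 0.28, Atp2a1 0.38, Ttn 0.041 and Des 0.19. With voom, established Myh7 was 1.40, Tnnt1 0.15, Tnnc2 0.063 and Tnni2 0.36. Without single libraries, Myh4 ran from -0.45 to 0.40 early and from -1.60 to 1.36 established, early Tnnc1 from -0.49 to 0.26 and early Tnni1 from -0.68 to 0.24. The established ratio of Tnni2 to Tnni1 ran from -0.80 to 0.51 and that of Tnnc2 to Tnnc1 from -1.01 to 0.13. The early difference of Mylpf to Myl2 ran from 2.17 to 3.09.

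Depth limits the slow genes, which had under 10 counts in 3 to 13 of 28 libraries, and the poorest library gave 351 myosin counts. Without 1 established library, Myl2 passed the filter in 10 and Tnnt1 in 12 of 13 fits. Library totals moved the median of all genes by -0.18 early and 0.32 established. Stage cannot be told apart from sex.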
